A study of Mus musculus with 9 samples.

Results

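The genes described here encode the machinery that carries proteins into, along and out of the photoreceptor cilium. They are 50 genes chosen by symbol: subunits of the BBSome, the factors that assemble and recruit it, carriers of lipid-modified cargo, components of the transition zone and connecting cilium, proteins of intraflagellar transport (IFT), kinesin-2 motors and tubby-family proteins. The deposited table holds 55487 genes, and all 50 were found in it. RNA-seq was done on whole retina of C57 BL/6J mice at postnatal day 21, with 3 libraries for each of 3 genotypes and the retinas of 2 animals pooled in each library. Cre- controls (labelled WT) carried no Cre transgene. The triple heterozygotes (tHet) carried 1 floxed allele each of Tet1, Tet2 and Tet3 together with the Chx10::Cre-GFP transgene, and Tet tcKO retinas carried the same transgene with both alleles of all 3 genes floxed. The transgene drives recombination in retinal progenitor cells and can act in a mosaic manner. Cre+ animals were bred to carry a pair of transgene copies, whereas Cre- animals came from separate Cre- breeders, so that a difference between Cre- and either of the other genotypes cannot be told apart from a difference between breeding lines.

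A photoreceptor outer segment is an enlarged primary cilium, joined to the cell body by the narrow connecting cilium through which its proteins must pass. IFT-B complexes, pulled by kinesin-2, move cargo towards the tip, and IFT-A complexes serve the return journey and the entry of membrane proteins. The BBSome is a coat of Bardet-Biedl syndrome proteins that is recruited to membranes by the small GTPase ARL6 and removes membrane proteins from cilia. Prenylated and acylated outer segment proteins travel by another route: the carriers PDE6D and UNC119 hold their lipid, the GTPase ARL3 releases them in the cilium, and RP2 switches ARL3 off. Inherited defects in many of these genes cause retinal degeneration. TET enzymes oxidise methylated cytosine, most of which lies in CG dinucleotides.

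Since the genotypes differ in enzymes that act on CG dinucleotides, the promoters of the 5 genes that passed the test in Tet tcKO versus Cre- are shown with each CG in capitals. Each is 300 bases, from 250 before to 50 after the most upstream RefSeq start, read 5′ to 3′ on the gene's strand (GRCm38.p6).
Arl3 (chr19:46573133-46573432, minus strand): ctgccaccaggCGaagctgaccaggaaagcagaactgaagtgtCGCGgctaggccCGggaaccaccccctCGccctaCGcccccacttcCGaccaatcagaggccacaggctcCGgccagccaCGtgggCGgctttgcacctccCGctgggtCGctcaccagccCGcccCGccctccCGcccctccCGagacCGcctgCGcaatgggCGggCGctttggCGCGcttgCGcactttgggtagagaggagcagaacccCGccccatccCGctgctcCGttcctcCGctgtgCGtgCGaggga
Arl6 (chr16:59639360-59639659, minus strand): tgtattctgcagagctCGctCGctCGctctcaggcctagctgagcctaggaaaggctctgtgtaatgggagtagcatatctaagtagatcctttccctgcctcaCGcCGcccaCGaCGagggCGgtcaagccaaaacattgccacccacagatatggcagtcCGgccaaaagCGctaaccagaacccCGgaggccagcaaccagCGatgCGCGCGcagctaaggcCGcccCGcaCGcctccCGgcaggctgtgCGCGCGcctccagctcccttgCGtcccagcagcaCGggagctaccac
Bbs5 (chr2:69646921-69647220, plus strand): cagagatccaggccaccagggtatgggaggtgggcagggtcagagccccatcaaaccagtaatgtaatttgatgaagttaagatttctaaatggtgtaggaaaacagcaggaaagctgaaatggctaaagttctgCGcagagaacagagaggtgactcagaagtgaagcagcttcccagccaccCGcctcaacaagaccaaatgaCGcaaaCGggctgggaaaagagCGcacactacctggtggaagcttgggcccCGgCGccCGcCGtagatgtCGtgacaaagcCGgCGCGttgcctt
Unc119 (chr11:78343245-78343544, plus strand): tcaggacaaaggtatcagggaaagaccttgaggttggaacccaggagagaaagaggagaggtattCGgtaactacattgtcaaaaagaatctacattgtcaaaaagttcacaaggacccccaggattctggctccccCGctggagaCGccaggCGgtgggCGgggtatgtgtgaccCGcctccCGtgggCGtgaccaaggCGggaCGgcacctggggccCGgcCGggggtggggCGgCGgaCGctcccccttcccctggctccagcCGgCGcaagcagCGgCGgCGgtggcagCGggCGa
Tulp3 (chr6:128355802-128356101, minus strand): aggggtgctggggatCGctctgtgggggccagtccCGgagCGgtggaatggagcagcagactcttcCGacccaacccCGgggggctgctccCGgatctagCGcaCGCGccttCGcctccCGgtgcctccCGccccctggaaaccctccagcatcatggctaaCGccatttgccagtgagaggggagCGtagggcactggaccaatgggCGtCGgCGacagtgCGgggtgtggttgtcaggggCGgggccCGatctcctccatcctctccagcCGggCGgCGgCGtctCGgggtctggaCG

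These windows held 29 CG dinucleotides for Arl3, 24 for Arl6, 13 for Bbs5, 22 for Unc119 and 26 for Tulp3. The median was 20 (quartiles 14 and 25) over the 46 members with a RefSeq promoter and 7 (quartiles 3 and 20) over 27025 genes. The Bbs5 window thus lay between the quartiles of all genes and below those of the members, while the others lay above the upper quartile of all genes. The Bbs5 window held the only GTTGCC among the 5, letters found within the X-box bound by RFX factors, which act on cilium genes. On either strand, GTTGCC was present in 19 of 46 member promoters (41.3%) and in 12.7% of all promoters of the same length. TAATCC, the core letters bound by the photoreceptor factors CRX and OTX2, was in 2 of 46 (4.35%) and in 7.15% of all promoters. TGCTGA, letters within sites of the rod factor NRL, was in 7 of 46 (15.2%) and in 19.2% of all. None of the 5 windows held TAATCC or TGCTGA, which says only that these letters are not in them. DNA methylation was not analysed here.

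Values are CPM, the reads of a gene scaled to the reads counted on all genes of the library. Library totals ran from 9627927 to 21108256 reads, so that the lowest value of a member, 3.24 CPM of Kif17 in Cre- replicate 2, stood well above the 0.191 CPM that 3 reads were worth in that library, a floor that covers counting error only. In Tet tcKO replicate 3, a single ribosomal RNA gene, CT010467.1, took 28.72% of the counted reads, against 3.72% in tHet replicate 3 and at most 0.226% in the others. The CPM of every other gene in Tet tcKO replicate 3 is lowered by this. Its value with CT010467.1 left out of the total is therefore given, for most genes shown by library, as the rescaled value. Differences are log2 fold changes on the log2(CPM + 0.5) scale, with the standard error (SE) and the Benjamini-Hochberg adjusted p of limma over the 21330 genes tested, to which all 50 members belonged. A gene was called where the log2 fold change was 1 or more in size with an adjusted p below 0.01. The words rose and fell are used of genes with an adjusted p below 0.05, whatever the size. Whole-gene counts of Tet1, Tet2 and Tet3 include exons outside the floxed part and so do not check the deletion. Tet3 fell in Tet tcKO versus Cre- (log2 fold change -0.99, SE 0.25, limma adjusted p = 0.0174), while Tet1 and Tet2 stood at 0.22 and 0.25 (limma adjusted p = 0.808 and 0.793).

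Tet tcKO retinas differed from Cre- retinas at the ARL GTPase genes Arl3 and Arl6, at a carrier of acylated cargo and at single BBSome and tubby-family genes. Arl3, Arl6, Bbs5 and Unc119 fell and Tulp3 rose. Of all tested genes, 6.5% passed at an adjusted p under 0.05, and 5 of the 50 members did (10.0%). The 4 that fell stand beside 2.98% of all genes, and the 1 that rose beside 3.53%. By the stricter rule 1 member was called, Arl3 (2.0%), beside 3.6% of all genes. The median log2 fold change of the 50 was -0.08 (quartiles -0.31 and 0.06), beside 0.00 for all tested genes, with 16 above 0 and 34 below. The remaining 45 did not pass, and for 37 of them the 95% interval lay wholly within a change of 1 on the log2 scale in either direction. All 3 Tet tcKO libraries lay above all Cre- libraries for 4 members and below them for 10, where the shares over all tested genes were 10.0% and 9.6%. With the rescaled values these counts were 6 and 7, beside 23.3% and 8.19% of all genes, since leaving CT010467.1 out moved the median of all genes to 0.14 and that of the members to 0.08.

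**Figure D1:**
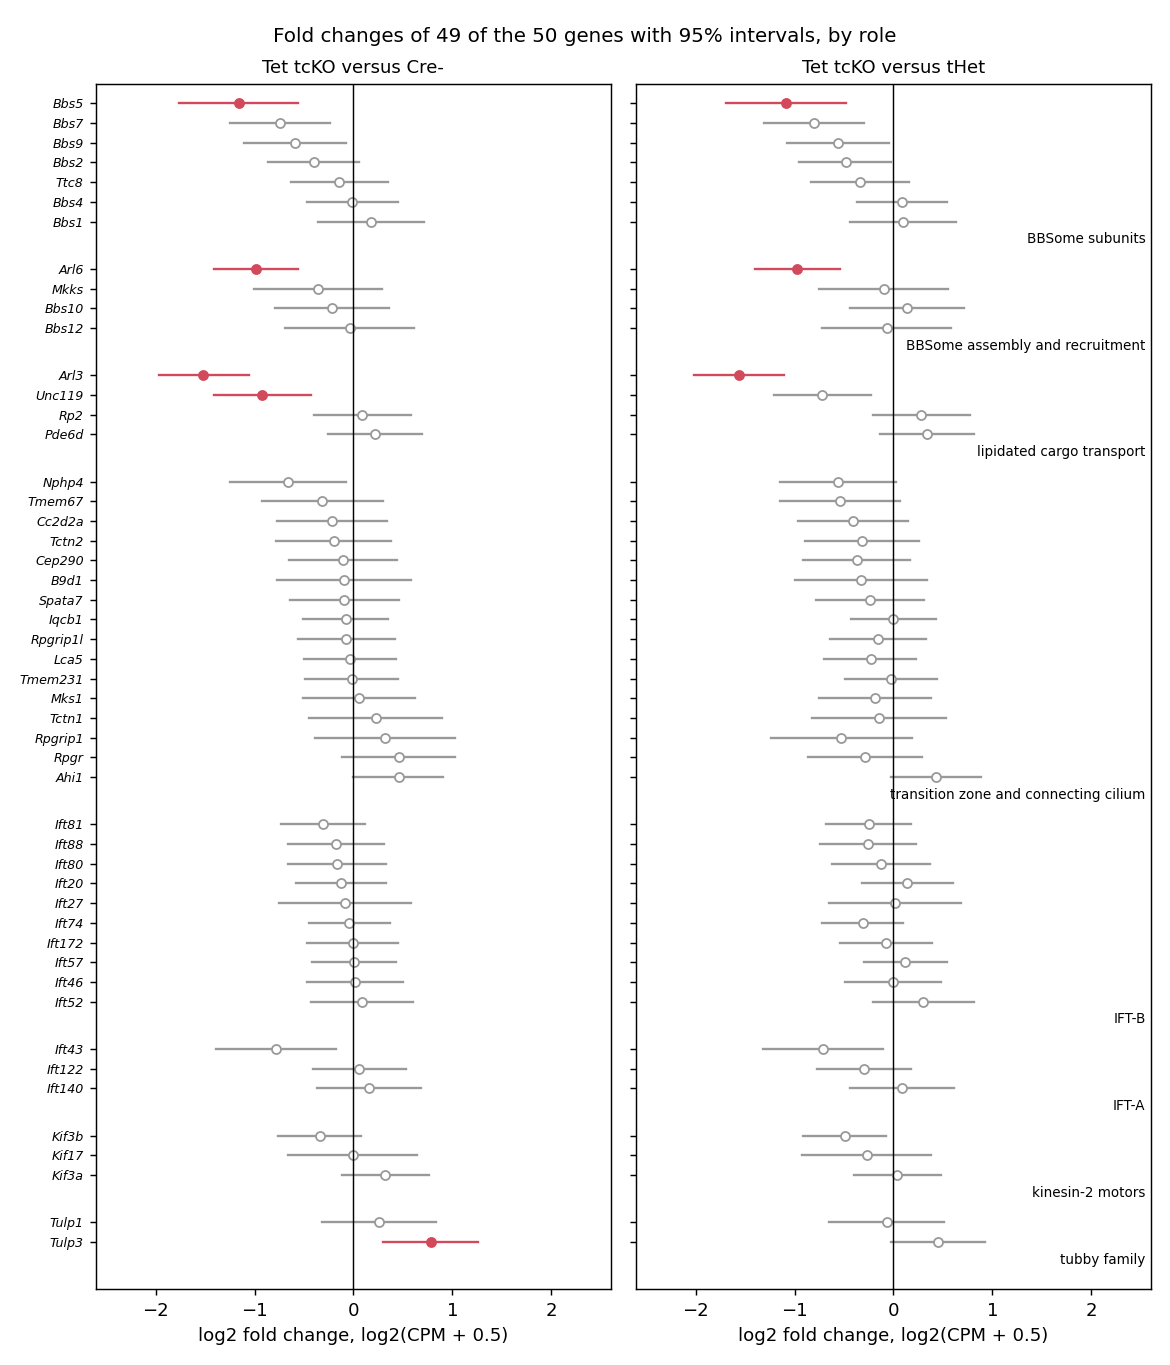
Log2 fold change of 49 of the 50 genes (points) with its 95% interval (lines) in Tet tcKO versus Cre- (left) and versus tHet (right), on the log2(CPM + 0.5) scale, with the name of each role under its genes. Filled red points passed at a limma adjusted p under 0.05: 5 genes on the left and 3 on the right, with Arl3 farthest from 0 in both panels at -1.52 and -1.56.

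Among the carriers of lipid-modified cargo, Arl3 changed most. It was at 187, 177 and 199.7 CPM in the Cre- libraries, at 222, 152 and 216 CPM in tHet, and at 54.9, 79.6 and 63.3 CPM in Tet tcKO, where the rescaled value of replicate 3 was 88.9 CPM. Every Tet tcKO library lay below every other library on either scale. The level in Tet tcKO was 35.1% of the Cre- mean (log2 fold change -1.52, SE 0.22, limma adjusted p = 0.000127), or 39.6% with the rescaled values. Arl3 was called against both controls, and its log2 fold change against tHet was -1.56 (SE 0.22, limma adjusted p = 0.000117). The gene (ENSMUSG00000025035.9) spans chr19:46531096-46573198 on the minus strand of GRCm38.

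Unc119, which binds the acylated tails of transducin alpha subunits and other cargo, was at 738, 712 and 661 CPM in Cre- and at 695, 558 and 590 CPM in tHet. The Tet tcKO libraries held 408, 425 and 295 CPM (replicate 3 rescaled, 414), below all the others. Unc119 fell versus Cre- (log2 fold change -0.92, SE 0.24, limma adjusted p = 0.0192). Against tHet its log2 fold change was -0.72 (SE 0.24), which did not pass (limma adjusted p = 0.0835), although it passed under 6 of 18 alternative settings, namely TMM scaling with and without the replicate block, upper-quartile scaling, the fit without CT010467.1, edgeR and DESeq2. Unc119 no longer passed versus Cre- when any of the 3 Cre- libraries was left out, with adjusted p of 0.0639, 0.076 and 0.0739 (limma), or with no filter on low values (0.0597).

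The paralogue Unc119b, which is not among the 50 genes, moved the other way. It was at 14.4, 16.5 and 16.1 CPM in Cre-, at 14.7, 16.9 and 14.1 CPM in tHet and at 34.1, 29.3 and 23.3 CPM in Tet tcKO, where all libraries were higher than any control. Unc119b rose versus Cre- (log2 fold change 0.85, SE 0.23, limma adjusted p = 0.030) and versus tHet (log2 fold change 0.89, SE 0.23, limma adjusted p = 0.0238). Over the alternatives its adjusted p versus Cre- ran from 1.28e-05 to 0.163, and 5 of 18 missed the threshold, each of them with 1 library left out. Per kilobase of exon, Unc119 exceeded Unc119b 77.0 to 96.3 times in the Cre- libraries, 62.0 to 89.0 times in tHet and 22.5 to 27.3 times in Tet tcKO. Unc119 thus stayed the more abundant transcript in every library.

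Of the same route, Pde6d, the carrier of prenylated cargo, and Rp2, which inactivates ARL3, stood at 0.22 and 0.09 versus Cre- (limma adjusted p = 0.797 and 0.946), with 95% intervals of -0.26 to 0.69 and -0.40 to 0.58.

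**Figure D2:**
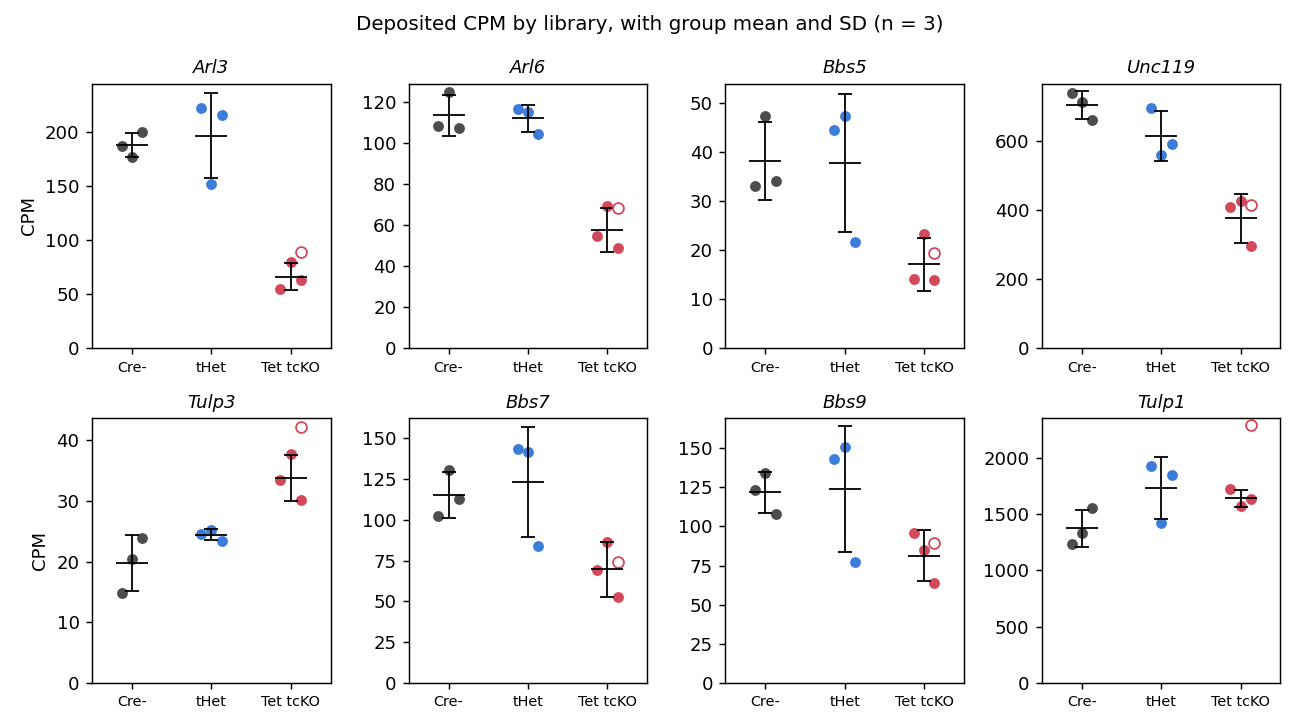
Deposited CPM of 8 genes in each library (filled points), with group means (bars) and SD (error bars, n = 3), for Cre-, tHet and Tet tcKO. Open circles give Tet tcKO replicate 3 with CT010467.1 left out of the total. For Arl3, Arl6 and Unc119 the Tet tcKO libraries lie below all control libraries on either scale.

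Of the genes that assemble and recruit the BBSome, Arl6 stood apart. It encodes the GTPase that brings the BBSome to membranes and is itself a Bardet-Biedl syndrome gene. It was at 108, 125 and 108 CPM in Cre- and at 117, 116 and 105 CPM in tHet, a narrow range in which the control genotypes overlapped. The Tet tcKO libraries held 54.8, 69.3 and 48.7 CPM (replicate 3 rescaled, 68.3), all below the controls. Arl6 fell to 50.6% of the Cre- mean (log2 fold change -0.99, SE 0.20, limma adjusted p = 0.00384) and fell versus tHet (log2 fold change -0.97, SE 0.20, limma adjusted p = 0.0051), in each case just short of the fold that a call requires. The chaperonin-like genes Bbs10, Bbs12 and Mkks, which fold and assemble the complex, did not pass. Their log2 fold changes versus Cre- were -0.22, -0.04 and -0.36 (limma adjusted p = 0.851, 0.988 and 0.719), and some exons of Bbs12 and Mkks overlap other genes on the same strand.

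Among the 7 BBSome subunits, 1 passed the test. Bbs5, the subunit with domains that bind membrane phosphoinositides, was at 33.1, 47.3 and 34.0 CPM in Cre- and at 14.1, 23.3 and 13.8 CPM in Tet tcKO (replicate 3 rescaled, 19.4), with no overlap. In tHet it was at 44.4, 47.4 and 21.6 CPM, so that tHet replicate 3 lay within the Tet tcKO range. Bbs5 fell versus Cre- (log2 fold change -1.16, SE 0.29, limma adjusted p = 0.016) and versus tHet (log2 fold change -1.09, SE 0.29, limma adjusted p = 0.0277). Bbs5 no longer passed versus Cre- without Cre- replicate 2 (limma adjusted p = 0.0624), Tet tcKO replicate 1 (0.102) or Tet tcKO replicate 3 (0.107), or with no filter on low values (0.0572). Versus tHet it no longer passed without tHet replicate 1 (0.164) or 2 (0.137), without Tet tcKO replicate 1 (0.162) or 3 (0.134), without CT010467.1 (0.0548) or with no filter (0.086).

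None of the other 6 subunits passed limma's test versus Cre-, where 2 had an unadjusted p under 0.05, Bbs7 and Bbs9. Of these, edgeR passed Bbs7 and DESeq2 passed both. Versus tHet none of the 6 passed limma's test either, but Bbs2, Bbs7 and Bbs9 had an unadjusted p under 0.05. Of the 6, edgeR and DESeq2 passed only Bbs7 versus tHet. Its log2 fold change there was -0.81 (SE 0.24, limma adjusted p = 0.0542), and it passed in 9 of 18 alternatives. Bbs7, a subunit of the beta-propeller core, was at 102.5, 131 and 113 CPM in Cre- and at 144, 142 and 84.1 CPM in tHet. In Tet tcKO it was at 69.4, 86.3 and 52.9 CPM (replicate 3 rescaled, 74.3), with a log2 fold change versus Cre- of -0.75 (SE 0.24, limma adjusted p = 0.0773). Versus Cre- it passed in 8 of 18 alternatives, with an adjusted p of 0.0071 under TMM scaling, 0.0106 with edgeR and 0.000319 with DESeq2, and of up to 0.249 in the rest. Bbs9, a scaffold of the complex, was at 123, 134 and 108 CPM in Cre- and at 95.6, 84.8 and 63.6 CPM in Tet tcKO (replicate 3 rescaled, 89.2), with a log2 fold change of -0.59 (SE 0.25, limma adjusted p = 0.213). Its adjusted p was 0.0375 with DESeq2. Bbs2 stood at -0.40 and Ttc8 at -0.14 versus Cre-. Bbs4 and Bbs1 stood at -0.01 and 0.17, with 95% intervals of -0.47 to 0.45 and -0.36 to 0.71. Measured in the same libraries, the subunits of this complex spanned log2 fold changes from -1.16 to 0.17.

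None of the 10 IFT-B genes passed limma's test versus Cre-, none had an unadjusted p under 0.05, and edgeR and DESeq2 also gave 0 of 10. Their log2 fold changes ran from -0.31 to 0.09, with a median of -0.06, and all 10 of the 95% intervals lay within 1 of 0. Ift74, which binds tubulin together with IFT81, was at 90.5, 105.5 and 110.3 CPM in Cre- and at 97.0, 101 and 99.1 CPM in Tet tcKO, so that the libraries overlapped (log2 fold change -0.04, SE 0.20, limma adjusted p = 0.977). Ift57 was at 40.2, 37.0 and 38.2 CPM in Cre- and at 40.6, 38.7 and 36.7 CPM in Tet tcKO, a log2 fold change of 0.01 (SE 0.20, limma adjusted p = 0.997). Rescaled, Ift74 and Ift57 reached 139 and 51.4 CPM in Tet tcKO replicate 3. Against tHet the IFT-B genes ran from -0.31 to 0.30, and again 0 of 10 passed with any of the 3 tools, with 0 at an unadjusted p under 0.05.

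Of the IFT-A genes, Ift122 and Ift140 stood at 0.06 and 0.16 versus Cre-, and Ift43 at -0.78 (SE 0.29, limma adjusted p = 0.136). Ift43 was at 8.77, 12.4 and 10.8 CPM in Cre- and at 3.98, 8.24 and 6.26 CPM in Tet tcKO, without overlap as deposited, but the rescaled value of replicate 3 was 8.79 CPM, which reached the Cre- range. None of the 3 genes passed with limma or edgeR, 1 of them had an unadjusted p under 0.05, and DESeq2 passed Ift43. The kinesin-2 genes did not pass either. The motor subunits Kif3a and Kif3b, which work as a pair, had log2 fold changes of 0.32 (SE 0.21, limma adjusted p = 0.547) and -0.34 (SE 0.20, limma adjusted p = 0.481). Kif3a was at 147, 136 and 153 CPM in Cre-, at 165, 154 and 216 CPM in tHet and at 197, 193 and 157 CPM in Tet tcKO (replicate 3 rescaled, 220). Each tHet and each Tet tcKO library was above each Cre- library, and Kif3a stood at 0.04 versus tHet (limma adjusted p = 0.954). The Kif3b libraries of Tet tcKO and Cre- overlapped, but each Tet tcKO library was below each tHet library (log2 fold change -0.49, SE 0.20, limma adjusted p = 0.192). Versus tHet, Kif3b had an unadjusted p under 0.05 and passed with upper-quartile scaling, but not with edgeR or DESeq2. Kif17, the homodimeric motor, was the least abundant of the 50 genes per kilobase of exon and stood at -0.01 (95% interval -0.66 to 0.64). None of the 3 motors had an unadjusted p under 0.05 in limma versus Cre-, and edgeR and DESeq2 gave 0 of 3.

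None of the 16 genes of the transition zone and connecting cilium passed limma's test in either comparison with Tet tcKO. Versus Cre- their log2 fold changes ran from -0.66 (Nphp4, a nephrocystin) to 0.46 (Rpgr and Ahi1), with a median of -0.07. At an unadjusted p under 0.05 there were 2 versus Cre-, Nphp4 and Ahi1, and 0 versus tHet. With edgeR Nphp4 passed versus Cre- and Ahi1 versus tHet, and with DESeq2 Nphp4 and Ahi1 passed versus Cre- and Ahi1 versus tHet. Ahi1, the Joubert syndrome gene encoding jouberin, was at 211, 249 and 278 CPM in Cre-, at 252, 271 and 224 CPM in tHet and at 381, 353 and 283 CPM in Tet tcKO (replicate 3 rescaled, 397). Its Tet tcKO libraries lay above all controls. Tmem231, a membrane protein of the transition zone, stood nearest to 0 at -0.02 (95% interval -0.49 to 0.45).

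The RPGR module showed spread within the control genotypes instead. Rpgrip1, which anchors RPGR in the connecting cilium, was at 678, 1508 and 1234 CPM in Cre-, at 2528, 2247 and 1286 CPM in tHet and at 1251, 1734 and 1130 CPM in Tet tcKO (replicate 3 rescaled, 1585), and all 3 genotypes overlapped. Its log2 fold change was 0.32 versus Cre- (SE 0.34, limma adjusted p = 0.805) and -0.53 versus tHet (SE 0.34, limma adjusted p = 0.483). Without Cre- replicate 1, the lowest library, the value versus Cre- was -0.02. Rpgr was at 65.1, 154 and 127 CPM in Cre-, at 211, 195 and 145 CPM in tHet and at 132, 190.2 and 131 CPM in Tet tcKO (replicate 3 rescaled, 184), and likewise overlapped. An exon of Rpgr overlaps Srpx on the same strand, and exons of Rpgrip1 overlap Supt16 on the other strand. The related Rpgrip1l, a transition zone protein of many ciliated cells, stood at -0.07 (SE 0.23, limma adjusted p = 0.958).

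The tubby-family genes differed in level and in outcome. Tulp1, the photoreceptor member that is needed for the delivery of outer segment proteins, was at 1233, 1333 and 1558 CPM in Cre- and at 1932, 1417 and 1852 CPM in tHet. In Tet tcKO it was at 1721, 1569.5 and 1637 CPM (replicate 3 rescaled, 2297). Each Tet tcKO library lay above each Cre- library, but the log2 fold change was 0.26 (SE 0.28, limma adjusted p = 0.803) and the tHet libraries overlapped both. Tulp3, which links IFT-A to membrane cargo, was at 14.8, 20.4 and 24.0 CPM in Cre- and at 24.6, 25.2 and 23.5 CPM in tHet. In Tet tcKO it was at 33.5, 37.7 and 30.1 CPM (replicate 3 rescaled, 42.2). All Tet tcKO libraries were above both controls. Tulp3 rose versus Cre- (log2 fold change 0.78, SE 0.23, limma adjusted p = 0.0441), but versus tHet the log2 fold change was 0.45 (SE 0.23, limma adjusted p = 0.318). Tulp3 did not pass versus Cre- in 6 of 18 alternatives, with a limma adjusted p of up to 0.259 without Cre- replicate 1.

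Compared per kilobase of exon, the 50 genes spanned more than 2 orders of magnitude, and the order at the top of the list differed between genotypes. In Cre-, Unc119 was the most abundant at 287 ± 16.1 CPM per kb (SD, n = 3), followed by Tulp1 at 206 ± 25 and Rpgrip1 at 93.8 ± 34.8. Arl3 came next at 75.4 ± 4.62, which is within the spread of Rpgrip1, and then Arl6 at 54.2 ± 4.74. Kif17 was the lowest at 0.895 ± 0.261 CPM per kb. Tulp1 was also first in tHet, at 260 ± 41.5 CPM per kb, where it did not differ from Unc119 (251 ± 29.3) beyond their spread. Arl3 and Arl6 stood at ranks 4 and 5 in tHet. In Tet tcKO, Tulp1 was first at 246 ± 11.4 CPM per kb, above Unc119 at 154 ± 28.9. Arl6 and Arl3 took ranks 8 and 9, at 27.5 ± 5.05 and 26.5 ± 5.04 CPM per kb, and did not differ beyond their spread.

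**Figure D3:**
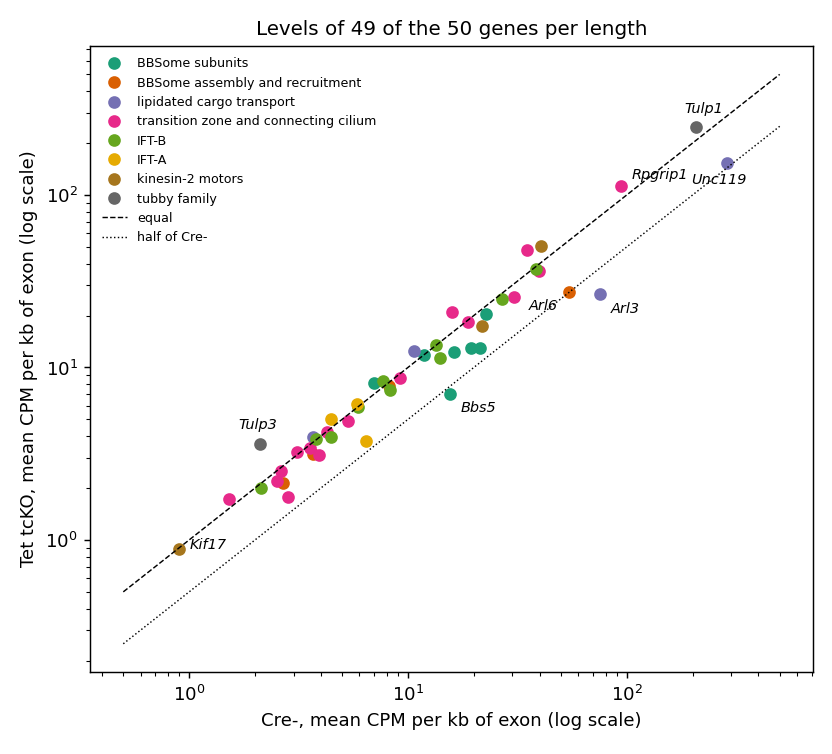
Mean level of 49 of the 50 genes in Tet tcKO against its mean level in Cre-, in CPM per kilobase of exon on log axes, coloured by role. The dashed line marks equal levels and the dotted line a Tet tcKO level of 50% of Cre-. Arl3 and Bbs5 lie below the dotted line, Arl6 and Unc119 near it, and most other genes near the dashed line.

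The comparison with tHet, in which both genotypes carry the transgene, gave 4 members at an adjusted p under 0.05 (8.0%, beside 5.95% of all genes), Arl3, Arl6 and Bbs5 among them. All 4 were lower (3.43% of all genes), and none was higher (2.52% of all genes). By the stricter rule Arl3 was again the 1 member called (2.0%, beside 3.0% of all genes). The median log2 fold change of the 50 was -0.23, and -0.06 for all tested genes. Every Tet tcKO library lay above every tHet library for 3 members (7.35% of all genes) and below for 7 (9.68%). These counts share the Tet tcKO libraries with the comparison against Cre- and are not a separate sample of them. Of the 46 members that did not pass, 38 had a 95% interval within 1 of 0. Without tHet replicate 3, the library in which Bbs5, Bbs7 and Bbs9 were lowest among the controls, 7 members passed and 4 were called.

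In tHet versus Cre-, 0 of 50 members passed limma's test by either rule, beside 0.0938% of all genes at an adjusted p under 0.05 and 0.0422% called. At an unadjusted p under 0.05 there were 2, Rpgrip1 (log2 fold change 0.84, 95% interval 0.13 to 1.56) and Rpgr (0.74, 95% interval 0.17 to 1.31), and edgeR and DESeq2 each gave 0 at an adjusted p under 0.05. The median of the 50 was 0.07 and that of all genes 0.06. Every tHet library lay above every Cre- library for 2 members (5.78% of all genes) and below for 0 (5.37%). For 47 members the 95% interval lay within 1 of 0.

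Among 60 other cilium genes, chosen with earlier results of these data known, 5 passed versus Cre- (8.33%, beside 6.5% of all genes). Versus tHet 7 passed (11.7%, beside 5.95% of all genes). By the stricter rule 2 were called versus Cre- (3.33%, beside 3.6% of all genes) and 2 versus tHet (3.33%, beside 3.0%). Called versus Cre- were Rp1, which encodes a microtubule protein of the outer segment axoneme, and Cep164, a distal appendage protein of the basal body. Rp1 was at 4298, 5213 and 4524 CPM in Cre- and at 1618, 1960.25 and 1334 CPM in Tet tcKO (log2 fold change -1.53, SE 0.35, limma adjusted p = 0.00814). Cep164 was at 157, 281 and 232 CPM in Cre- and at 69.0, 121 and 81.1 CPM in Tet tcKO (log2 fold change -1.30, SE 0.26, limma adjusted p = 0.00263). Neither gene overlapped between these genotypes. Versus tHet, Cep164 (-1.69, limma adjusted p = 0.000268) and Fam161a, a connecting cilium protein (-1.24, limma adjusted p = 0.00842), were called. The 11 other IFT genes ran from -0.24 to 0.41 versus Cre-, with all 95% intervals within 1 of 0.

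Markers of photoreceptor types also differed between Tet tcKO and Cre- retinas, and not all in the same direction. In whole retina, fewer cells of a type and less RNA per cell cannot be told apart. Of 12 rod markers, 10 fell in Tet tcKO versus Cre-, and their summed level was 22411 to 24451 CPM in Cre-, 21550 to 24407 CPM in tHet and 4144 to 8499 CPM in Tet tcKO. Of 12 cone markers, 8 rose and 1 fell, with sums of 855 to 983 CPM in Cre-, 927 to 1126 CPM in tHet and 2105 to 3379 CPM in Tet tcKO. Among 7 genes that rods and cones share, 4 fell, with sums of 7078 to 7850 CPM in Cre- and 2056 to 3457 CPM in Tet tcKO. Relative to Cre-, the rod sum was at 25% in Tet tcKO, the shared sum at 37.0% and the cone sum at 308%, while Arl3 was at 35.1%, Bbs5 at 44.7%, Arl6 at 50.6% and Unc119 at 53.5%. With the rescaled values the rod, shared and cone sums were at 27.9%, 40.7% and 339%. Arl3, Bbs5, Arl6 and Unc119 were then at 39.6%, 49.6%, 56.4% and 59.1%. The part of these marker changes in the fall of the 4 genes was not tested.

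**Figure D4:**
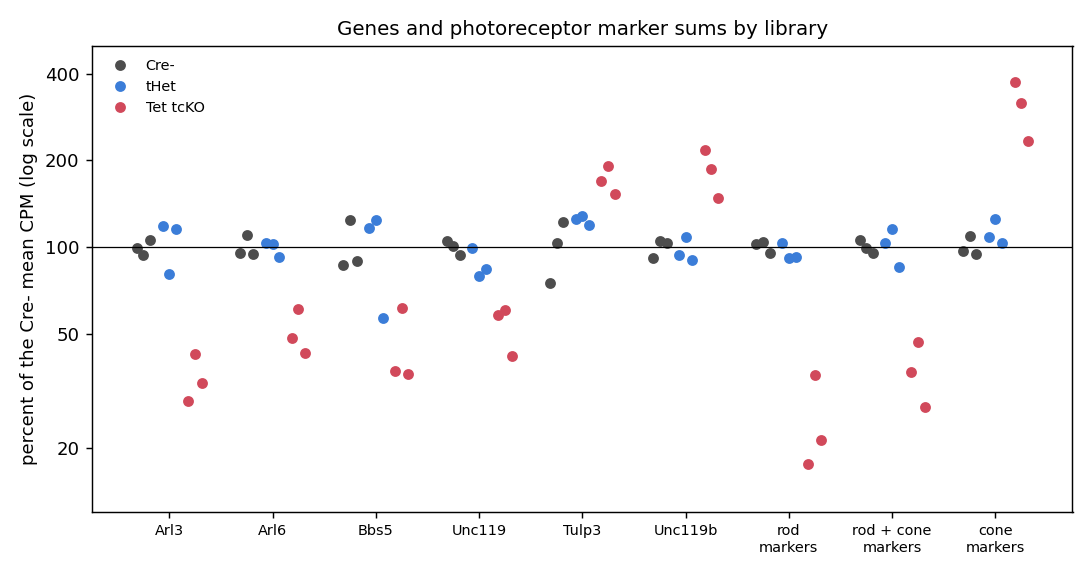
Level in each library as a percentage of the Cre- mean CPM (log axis) for 5 members, for Unc119b and for the summed rod, shared and cone markers, with 3 libraries for each of Cre-, tHet and Tet tcKO. In Tet tcKO the 4 genes that fell lie between 29.2% and 61.1%, the rod sum between 17.6% and 36.0%, and the cone sum between 233% and 374%. The values are deposited CPM, which CT010467.1 lowers in Tet tcKO replicate 3. The cone sum of that library was at 233%, and at 327% with the rescaled value.

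Of the other neurons and glia, bipolar markers summed to 1682 to 1968 CPM in Cre- and 1060 to 1860 CPM in Tet tcKO, with 3 of 9 lower and 1 higher by the test. Ganglion cell markers summed to 1205 to 1752 and 780 to 1227 CPM, with 1 of 7 lower. Müller glia markers summed to 1987 to 2559 and 1745 to 2244 CPM, with 2 of 8 lower and 1 higher, and amacrine and horizontal markers to 536 to 632 and 378 to 745 CPM, with 1 of 9 lower. The low end of each of these Tet tcKO ranges was replicate 3. Rescaled, the Tet tcKO sums were 1365 to 1862 CPM for bipolar and 1067 to 1228 CPM for ganglion cell markers. They were 530 to 746 CPM for amacrine and horizontal markers and 2166 to 2449 CPM for Müller glia markers, the latter within the Cre- range. Markers of the retinal pigment epithelium, a ciliated tissue beside the retina, summed to 51.7 to 206 CPM in Cre-, 154 to 196 CPM in tHet and 28.7 to 41.7 CPM in Tet tcKO, with 4 of 6 tested markers lower in Tet tcKO versus Cre- by the test. Markers of cells with motile cilia summed to 88.6 to 128 CPM in Cre- and to 95.1 to 114 CPM in Tet tcKO, with 1 of 7 tested markers higher by the test. The most abundant of these markers had a Cre- mean of 60.0 CPM and the median marker 1.03 CPM, so that the sum says little of the others. Microglia markers summed to 20.9 to 30.6 and 34.3 to 68.1 CPM, with 1 of 8 higher. Rescaled, the Tet tcKO sums were 39.7 to 41.8 CPM for pigment epithelium, 110 to 133 CPM for motile cilium and 47.3 to 68.1 CPM for microglia markers. None of the 89 markers was at 0 in every library. The part of these cells in the results was not tested.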

How the data were processed

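Per the labels and the methods, RNA of whole retina was depleted of ribosomal RNA, made into stranded libraries, trimmed with Trim Galore 0.6.7, aligned to mm10 with STAR 2.7.0f and counted with HTSeq 0.11.2. The annotation, strand and overlap settings of the counting are not given in the sources used here. The authors deposited CPM values for 55487 genes, scaled by the plain library total, beside columns of their edgeR comparisons (log2 fold changes, mean log2 CPM, p-values, FDR), which were not used. All positive CPM (100%) counted as whole multiples of 1 read, so reads were recovered: 9627927 to 21108256 per library. The tolerance was 0.01 reads, except at the highest values, where a relative tolerance was used that any value would meet. Floors cover counting error only, and 95% intervals rest on the spread between libraries.

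The 21330 genes that reached 0.5 CPM in 3 or more of 9 libraries were fitted as log2(CPM + 0.5) with limma 3.58.1 (trend) in R 4.3.3, with 1 mean per genotype, two-sided, and Benjamini-Hochberg adjustment over all of them. Alternatives were edgeR 4.0.16 and DESeq2 1.42.0 on recovered reads, other pseudocounts, filters and scalings, a replicate block, the 6 libraries compared and leaving out each library. A fit with TMM scaling and the replicate block together was chosen after seeing the data. The labels number replicates 1 to 3, but same-numbered libraries come from different animals, and in pairs their deviations correlated between -0.35 and 0.56. P-values measure the spread between these libraries, each a pool of 2 animals.

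The members, the other cilium genes, the markers and the rule for naming were chosen with earlier results of these data known. Named were members past either rule, the member with the highest mean CPM and the one nearest 0 in each role, and 3 related pairs; of other cilium genes, those called. The values of 1 member, counted in the totals, are not reported here. Bbs7, Bbs1, Bbs2, Ttc8, Bbs10, Mkks, Pde6d, Nphp4, Ahi1, Rpgr, Ift43, Ift140 and Unc119b were named after their values were seen. Positions, exon lengths and overlaps are from GENCODE release M21 (GRCm38), and promoters and their letters from RefSeq (GRCm38.p6), the most upstream start of each gene. Of 61 other cilium symbols, 60 were matched. Figures were drawn with matplotlib 3.10.9.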

Additional observations from a re-analysis of the deposited data

How the results depend on the processing

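Arl3 and Arl6 stayed past an adjusted p of 0.05 in all 18 alternatives of both comparisons with Tet tcKO, with log2 fold changes versus Cre- of -1.66 to -1.36 and -1.13 to -0.83 (limma, edgeR or DESeq2 adjusted p up to 0.00273 and 0.0296). The number of members called versus Cre-, 1 in the report, was 5 at an adjusted p under 0.05 with no fold threshold, which changes both parts of the rule, 2 with TMM scaling, edgeR, DESeq2, the replicate block, TMM with the replicate block, and the 6 libraries alone, and 1 to 3 with 1 library left out. Versus tHet it was 4 at an adjusted p under 0.05 with no fold threshold, 2 with DESeq2, the replicate block, TMM with the replicate block, and the 6 libraries alone, and 1 to 4 with 1 library left out. At an adjusted p under 0.05, the 5 members versus Cre- became 2 with no filter, 11 with DESeq2, 8 with TMM and the replicate block together, and 2 to 5 with 1 Cre- or Tet tcKO library left out, the fewest without Cre- replicate 2, and 6 without tHet replicate 3, which only shares the estimate of the spread. The 4 versus tHet became 2 with no filter, 7 with TMM scaling, upper-quartile scaling, edgeR or DESeq2, 8 with TMM and the replicate block, and 2 to 7 with 1 library left out, the fewest without tHet replicate 1 or 2 or Tet tcKO replicate 1 or 3. The replicate block alone gave 6 and 5. In tHet versus Cre-, 0 members passed in every alternative, and the median of the members ran from -0.03 to 0.26, the highest without tHet replicate 3. The cause of these differences was not tested.

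Genes near 0 versus Cre- changed sign. Without CT010467.1, which also moved the median of all genes by 0.14, Bbs12 stood at 0.12, Bbs4 at 0.15, Ift74 at 0.12, Kif17 at 0.14, Rpgrip1l at 0.09 and Tmem231 at 0.14, and with edgeR Bbs4 stood at 0.00. With 1 library left out, Bbs12 ran from -0.19 to 0.22, Bbs4 from -0.13 to 0.14, Ift122 from -0.05 to 0.22, Ift57 from -0.03 to 0.04, Ift74 from -0.12 to 0.02, Kif17 from -0.18 to 0.19, Rp2 from -0.07 to 0.18, Rpgrip1 from -0.02 to 0.56, Rpgrip1l from -0.22 to 0.11 and Tmem231 from -0.11 to 0.12. Same-numbered libraries share only a number. All of these genes were above the floor of 3 reads in every library, which does not show that depth left their fold changes unaffected. With 3 libraries a genotype, an exact permutation p cannot fall below 0.1.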
